A study of Mus musculus with 6 samples.

Results

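A group of 9 genes of retinoid metabolism and signaling were followed in gastrocnemius/plantaris (GP) muscle of the mouse, led by Dhrs9, a short-chain dehydrogenase that oxidizes retinol and some hydroxysteroids. The 9 genes were taken by symbol from the 24421 genes of the count tables: the retinol dehydrogenases Dhrs9, Rdh5 and Rdh10, the retinal reductase Dhrs3, the retinal dehydrogenases Aldh1a1 and Aldh1a2, the retinoic acid binding protein Crabp2, and the retinoic acid receptors Rara and Rarb. They were chosen with the counts of these same libraries in view, Dhrs9 for its difference between the labelled groups, so their values are given here as a description, with no test. The study asked what loss of Net39, an inner nuclear membrane protein of muscle, does to adult muscle. Bulk RNA-Seq covered 3 GP muscles labelled Ctrl, from Net39 fl/fl mice without Cre, and 3 labelled cKO, from HSACreERT2;Net39 fl/fl mice. All 6 mice carried the floxed Net39 alleles on what the labels give as a B6C3F1 background, and all were taken at 5 months of age, 3 months after tamoxifen, which both groups received. By the study's methods the mice were male, and HSA-CreERT2 is a tamoxifen-inducible Cre under the human skeletal actin promoter that is active in skeletal muscle and not in satellite cells or heart, so other cells of the muscle keep the gene.

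Retinoids work through a short pathway. Retinol is oxidized to retinal by dehydrogenases of the short-chain family, a step that reductases such as Dhrs3 reverse, and retinal is then oxidized irreversibly to retinoic acid by the Aldh1a enzymes. Retinoic acid binds nuclear receptors of the Rar family, which pair with Rxr receptors on direct repeats of a hexamer in DNA, and Cyp26 enzymes break it down. In skeletal muscle, retinoic acid is known for its effects on myoblast differentiation and on fat and connective tissue cells between the fibers.

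The targeted gene went against the labels. Net39 is listed as Ppapdc3, and its counts were 310, 321 and 217 in Ctrl-labelled libraries 1, 2 and 3 and 5365, 4340 and 6080 in the cKO-labelled ones. Every library labelled cKO, the group meant to lack Net39, was thus far above every library labelled Ctrl. The level was 134 ± 19.7 against 7.20 ± 1.10 CPM (counts scaled by library size; mean ± SD, n = 3 each, labelled cKO first), and the fitted difference was 4.22 on the log2 scale (SE 0.17). This check of the labels was known when the genes were chosen and is given with no test. The labels were kept as given. Every direction below is that of the labelled groups.

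Total counts were 33860001 to 38201728 in the Ctrl-labelled libraries and 39191239 to 48839910 in the cKO-labelled ones, so that 1 CPM stood for about 35.4 to 44.0 counts. Skeletal muscle fiber markers (Acta1, Ckm, Myh4, Mylpf, Tnnt3 and Pvalb) summed to 71008 CPM or more in each of the 6 libraries, as the tissue label says. CPM were scaled by trimmed mean of M values (TMM) throughout. A gene passed edgeR's quasi-likelihood test at an adjusted p under 0.05 over 14180 genes tested, and was called where its fold change also exceeded 2. Of the 14180, 24.4% passed (11.8% higher in the Ctrl-labelled libraries and 12.6% higher in the cKO-labelled ones), 6.05% were called (3.92% and 2.13%), and in 43.9% the groups did not overlap (21.9% and 22%). With total counts in place of TMM, the split of calls moved from 556 higher in the Ctrl-labelled libraries and 302 higher in labelled cKO to 1023 and 157, and the median log2 difference of all genes moved from -0.0155 to -0.269.

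Dhrs9 lies on mouse chromosome 2 at chr2:69380445-69404533, plus strand (GRCm38, GENCODE M21). Its annotated transcript has 5 exons that encode 319 codons, and no exon base is shared with another gene. The 250 bases before the RefSeq start sites of Dhrs9 and Rarb are shown because Dhrs9 had the largest difference of the group and because the Rarb promoter holds a retinoic acid response element that is a textbook example of its kind. The sequences come from RefSeq (GRCm38), at chr2:69380212-69380461 on the plus strand for Dhrs9 and chr14:16575477-16575726 on the minus strand for Rarb. Capitals mark matches on either strand to the receptor hexamer AGGTCA, its variant GGGTCA, the hexamer GGTTCA that opens the Rarb element and the hexamer AGTTCA that closes it, as well as to the TATA box TATAAA and the E-box CAGCTG, with the spacer of the Rarb repeat in capitals too.
Dhrs9: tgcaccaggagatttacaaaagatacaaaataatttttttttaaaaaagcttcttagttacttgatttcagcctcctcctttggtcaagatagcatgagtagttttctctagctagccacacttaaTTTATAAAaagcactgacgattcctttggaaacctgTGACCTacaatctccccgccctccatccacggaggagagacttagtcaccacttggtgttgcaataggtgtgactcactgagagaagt
Rarb: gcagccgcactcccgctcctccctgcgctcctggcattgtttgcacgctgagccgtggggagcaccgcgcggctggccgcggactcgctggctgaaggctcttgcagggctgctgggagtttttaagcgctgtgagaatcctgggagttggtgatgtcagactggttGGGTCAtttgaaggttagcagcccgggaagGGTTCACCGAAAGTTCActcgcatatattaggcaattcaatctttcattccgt

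The Dhrs9 window held a single receptor hexamer, at bases -88 to -83 from the start and on the opposite strand (TGACCT as printed). It also held TATAAA at -122 to -117, which overlaps a second match on the opposite strand at -124 to -119, and no E-box. A single hexamer was common: 43.7% of 32544 promoter windows of 300 bases (250 before and 50 after the start) held at least 1, and 13.6% held TATAAA and 16.4% the E-box. No direct repeat of hexamers spaced by 1, 2 or 5 bases was found in the Dhrs9 window. A match is a description of letters and not a site of binding.

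A direct repeat spaced by 5, the arrangement that Rar receptors are known to favor, was found in 0.0983% of the windows (32). Of the 7 members with a promoter entry, only Rarb held it, at -53 to -37. The hexamers searched included those that open and close the Rarb element, so its match was fixed by that choice. The repeat of Rarb and that of Cyp26a1, a retinoic acid-degrading enzyme, are set side by side because both genes are textbook targets of retinoic acid. Capitals mark the hexamers. The Rarb repeat lies at chr14:16575513-16575529 on the gene's own strand, and the Cyp26a1 repeat at chr19:37697776-37697792 on the strand opposite to the gene, at -32 to -16.
Rarb: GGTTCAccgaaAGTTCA
Cyp26a1: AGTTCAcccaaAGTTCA

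Counts of Dhrs9 were 300, 256 and 225 in Ctrl-labelled libraries 1, 2 and 3 and 0, 0 and 1 in the cKO-labelled ones. Dhrs9 RNA was therefore present in every library labelled Ctrl and all but absent from every library labelled cKO. The level was 6.66 ± 0.864 CPM in the Ctrl-labelled libraries and 0.00757 ± 0.0131 CPM in the cKO-labelled ones (n = 3 each). A count of 0 allows up to 3 counts, which is 0.0847 CPM in library 1 labelled cKO and 0.0779 CPM in library 2. Over the pooled counts, 781 against 1, the level was 786 times higher in the Ctrl-labelled libraries, with an exact 95% interval of 141 to 31094 that covers counting error only. The fitted log2 difference was -9.16 (SE 0.42), the lowest of the 14180 genes tested. Its size depends on the small count that the fit adds to zeros, and it ran from -11.00 without replicate 3 of the cKO-labelled libraries, which holds the single count, to -8.74 without replicate 2. In a bulk sample, fewer cells of a type and less RNA per cell cannot be told apart.

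Few genes shared this pattern. By the rule of at most 3 counts in every library of a group and at least 30 in every library of the other, 8 genes were at or near 0 in the cKO-labelled libraries, and 0 genes were so in those labelled Ctrl. Besides Dhrs9 these were Sox11, a transcription factor, Ripply1, a transcriptional corepressor of the somites, Cemip, which takes part in hyaluronan breakdown, Rprm, a cell cycle inhibitor, Ces5a, a carboxylesterase, and Zfp474 and Wdr72. Dhrs9 had the highest counts of the 8: the other 7 ranged from 30 to 138 counts in the Ctrl-labelled libraries and from 0 to 3 in the cKO-labelled ones. All 8 were chosen by these counts, so they carry no test.

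Among the 5 genes whose profile over the 6 libraries was most like that of Dhrs9 were Nxn, a thioredoxin-family protein (Pearson's r = 0.9992), Nckap5 (0.99873), Sspn, the dystrophin-associated protein sarcospan (0.99709), and Nfkb2, a subunit of the noncanonical NF-κB pathway (0.99679). The measure was r of log2 (CPM + 0.1) over 6 libraries. These points fall into the 2 labelled groups, with no value of Dhrs9 in between. These 4 genes differed far less than Dhrs9, with log2 differences of -0.93 for Nxn, -3.04 for Nckap5, -0.42 for Sspn and -1.89 for Nfkb2.

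**Figure D1:**
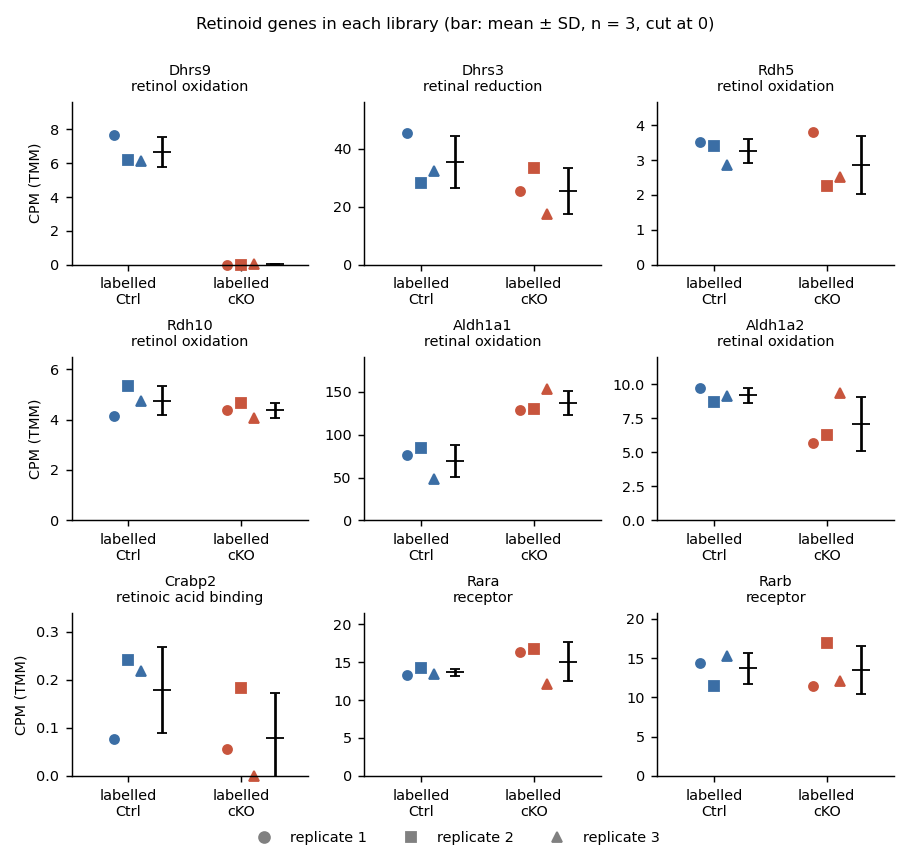
Levels of the 9 retinoid genes in CPM (TMM scaling) in each library, with the 3 libraries labelled Ctrl in blue and the 3 labelled cKO in red. Symbols give the replicate numbers, which were not treated as pairs of mice across groups, and black bars give the mean ± SD. Dhrs9 sits at 6.15 CPM or higher in the Ctrl-labelled libraries and at 0.0227 CPM or lower in the cKO-labelled ones, Aldh1a1 is the other gene whose groups do not overlap, and the other 7 overlap.

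Among the 9 members, 8 had enough counts for the fit. The groups did not overlap in 2 of them (25%, against 43.9% of all genes tested), Dhrs9 and Aldh1a1, and a fitted fold change over 2 was found for Dhrs9 alone. Since the members were picked with this contrast known, nothing is read from these counts. The median log2 difference of the 8 was -0.16.

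Rdh5 and Rdh10 are the other retinol dehydrogenases of the group. Rdh5 is best known from the retinal pigment epithelium, and Rdh10 is the main retinol dehydrogenase of the embryo. Rdh5 was at 3.52, 3.40 and 2.87 CPM in Ctrl-labelled libraries 1, 2 and 3 and at 3.81, 2.26 and 2.52 CPM in the cKO-labelled ones. Its groups overlapped, with the highest and the lowest library both labelled cKO, and the log2 difference was -0.19 (SE 0.23). Of the Rdh5 exon bases, 720 also belong to Bloc1s1 on the same strand, so counts of the pair may have been split or dropped. Rdh10 was at 4.16, 5.33 and 4.76 CPM in the Ctrl-labelled libraries and at 4.40, 4.65 and 4.07 CPM in the cKO-labelled ones, which overlap as well, with a log2 difference of -0.12 (SE 0.14).

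Within each library, and so without any scaling between libraries, Dhrs9 made up 44.2%, 36.7% and 39.9% of the summed level per kilobase of exon (per kb) of Dhrs9, Rdh5 and Rdh10 in the Ctrl-labelled libraries and 0%, 0% and 0.282% in the cKO-labelled ones. The sum of the 3 retinol dehydrogenases was 4.04, 3.94 and 3.60 CPM per kb against 2.41, 1.92 and 1.88 CPM per kb. Dhrs9 itself made up most of the gap between these sums, and Rdh5 and Rdh10 each overlapped between the groups. The shares and sums take the Rdh5 level as counted, which may be too low where its exons are shared with Bloc1s1.

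Dhrs3, which turns retinal back into retinol and is itself a known target of retinoic acid, was at 45.5, 28.3 and 32.3 CPM in Ctrl-labelled libraries 1, 2 and 3 and at 25.4, 33.2 and 17.5 CPM in the cKO-labelled ones. The groups overlapped, and the mean of the Ctrl-labelled libraries was raised by replicate 1. The log2 difference was -0.48 (SE 0.26), and it ranged from -0.74 without replicate 2 labelled cKO to -0.26 without replicate 1 labelled Ctrl.

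Aldh1a1 and Aldh1a2, which oxidize retinal to retinoic acid, had differences of opposite sign. Aldh1a1 was at 75.8, 84.0 and 48.5 CPM in Ctrl-labelled libraries 1, 2 and 3 and at 128, 130 and 154 CPM in the cKO-labelled ones. All 3 libraries labelled cKO lay above all 3 labelled Ctrl. The mean was 137 ± 14.2 against 69.4 ± 18.6 CPM, and the log2 difference of 0.98 (SE 0.20) kept its sign in 13 of 13 alternatives, from 0.73 with total counts to 1.15 without replicate 2 labelled Ctrl. The skeletal fiber list, most of whose genes are typical of fast fibers, was also higher in the cKO-labelled libraries (131346 to 176131 CPM summed, against 71008 to 98151 CPM, 5 of 6 markers passing, all but Acta1), while the slow fiber list was lower there (287 to 2869 CPM against 7399 to 12296 CPM, 3 of 6 passing). The sum of the satellite cell markers was also higher (36.9 to 46.2 CPM against 30.3 to 31.9 CPM, 1 of 6 passing), but its markers were mixed. Cdh15 passed (log2 difference 0.52) and the groups did not overlap in Chodl (0.42). Myf5 (0.58) and Calcr (0.47) overlapped, as did Pax7 (-0.10) and Vcam1 (-0.04), which were slightly lower. The part of these lists in the Aldh1a1 difference was not tested. A small part of the Aldh1a1 sequence is shared with a near copy, Aldh1a7 (5.70% of its stretches of 31 bases), which had 15 to 49 counts per library.

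Aldh1a2, the main retinal dehydrogenase of the embryo, was at 9.76, 8.66 and 9.13 CPM in the Ctrl-labelled libraries and at 5.67, 6.23 and 9.34 CPM in the cKO-labelled ones. Replicates 1 and 2 labelled cKO were below every library labelled Ctrl, but replicate 3 was within their range. The log2 difference was -0.37 (SE 0.19), and -0.64 without that replicate. Within libraries, the ratio of Aldh1a1 to Aldh1a2 per kb was 3.56, 4.45 and 2.43 in the Ctrl-labelled libraries and 10.4, 9.54 and 7.54 in the cKO-labelled ones. The ratio of Aldh1a1 to the opposing reductase Dhrs3 was 0.987, 1.76 and 0.890 against 3.00, 2.32 and 5.21. Neither ratio overlapped between the groups, and neither depends on how libraries are scaled.

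Crabp2, a carrier that delivers retinoic acid to its receptors in the nucleus, had 3, 10 and 8 counts in the Ctrl-labelled libraries and 2, 7 and 0 in the cKO-labelled ones. These counts were too low for the fit and overlapped, so no difference was detectable at this depth.

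The receptors Rara and Rarb overlapped between the groups. Rara was at 13.3, 14.2 and 13.5 CPM in Ctrl-labelled libraries 1, 2 and 3 and at 16.3, 16.7 and 12.1 CPM in the cKO-labelled ones, and the cKO-labelled libraries lay on both sides of those labelled Ctrl. Its log2 difference of 0.14 (SE 0.13) turned to -0.11 with total counts. Rarb was at 14.4, 11.5 and 15.3 CPM against 11.4, 17.0 and 12.1 CPM, which overlap almost fully. The log2 difference was -0.02 (SE 0.18), and its sign changed in 4 of 13 alternatives, from -0.26 to 0.07. Of the Rarb exon bases, 2020 overlap Top2b and Gm48162 on the opposite strand, and the strand setting of the counting is not given in the sources used here.

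Other genes with the direct repeat spaced by 5 in their promoter were few. The windows belonged to 31 symbols, of which 12 were among the genes counted and 4 could be tested: Rarb itself, Cyp26a1, Blvrb, a biliverdin reductase, and Tnfsf13b, a B cell survival factor. Of the 4, 0 passed (edgeR, against 24.4% of all genes), 1 had an unadjusted p under 0.05, 0 passed with DESeq2, and 1 passed with total counts. With so few genes these counts say little. The gene with the unadjusted p under 0.05 was Blvrb, at 5.59 ± 0.249 CPM in the Ctrl-labelled libraries and 4.32 ± 0.240 CPM in the cKO-labelled ones (log2 difference -0.37, SE 0.12, edgeR adjusted p = 0.0579).

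**Figure D2:**
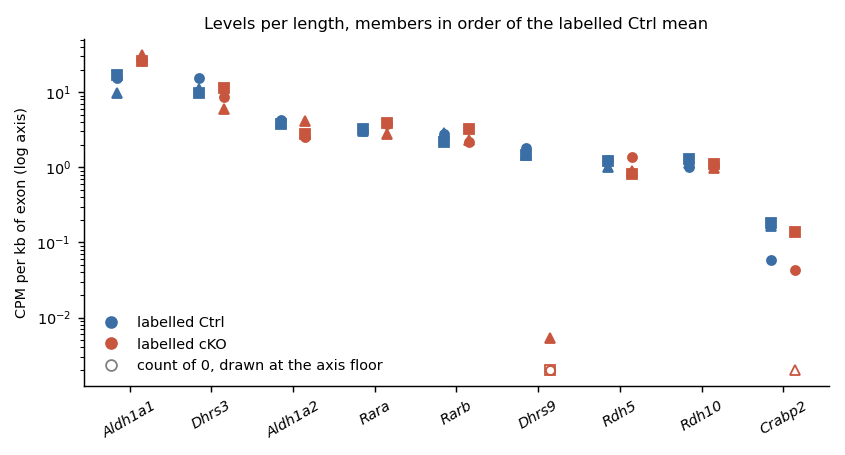
Level of each member in CPM per kb of annotated exon (log axis) in each library, in order of the mean of the Ctrl-labelled libraries (blue), with the cKO-labelled libraries in red. Open symbols are counts of 0, drawn at the axis floor. By the counts as given, Dhrs9 stands between Rarb and Rdh5 in the Ctrl-labelled libraries and falls among the lowest points in the cKO-labelled ones. The Rdh5 level may be too low, since some of its exon bases are shared with Bloc1s1.

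Per kb of exon, Aldh1a1 and Dhrs3 had the highest levels of the group in the Ctrl-labelled libraries, at 14.1 ± 3.77 and 12.1 ± 3.08 CPM per kb, and these neighbors overlapped. Below them came Aldh1a2 at 4.06 ± 0.242, Rara at 3.13 ± 0.113, Rarb at 2.61 ± 0.379 and Dhrs9 at 1.56 ± 0.202 CPM per kb, and no neighbors from Dhrs3 down to Rdh5 overlapped. Rdh5 (1.16 ± 0.124) and Rdh10 (1.14 ± 0.141) could not be told apart, and Crabp2 was last at 0.135 ± 0.0675 CPM per kb. The Rdh5 level was taken over all 2809 of its exon bases, 720 of them shared with Bloc1s1. Were counts there dropped, its level would be too low, so its place relative to Dhrs9 and Rdh10 is not settled. In the cKO-labelled libraries the order began with Aldh1a1 at 27.8 ± 2.88 and Dhrs3 at 8.66 ± 2.68 CPM per kb, which no longer overlapped. Rara, Aldh1a2 and Rarb followed at 3.45, 3.13 and 2.56 CPM per kb, where Aldh1a2 overlapped both Rara and Rarb. Rdh10 and Rdh5 also overlapped, at 1.05 and 1.02 CPM per kb. Dhrs9 was now last, at 0.00177 CPM per kb, and its range overlapped that of Crabp2 (0.0601 CPM per kb).

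The rest of the retinoid pathway was read from a list of 61 genes outside the group, all of them among the genes counted and 42 with enough counts for the test. Of the 42, 9 passed (21.4%, against 24.4% of all genes): 3 were higher in the Ctrl-labelled libraries and 6 in the cKO-labelled ones. Of these, 3 were called (7.14%, against 6.05% of all genes), and in 16 the groups did not overlap (38.1%, against 43.9%). The median log2 difference of the list was -0.06, against -0.02 for all genes tested. The list as a whole was thus called about as often as any gene, and what follows concerns single genes.

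Enzymes that interconvert retinol and retinal gave 4 of the 9, out of 10 tested (40%, against 24.4% of all genes). Rdh12, a retinal reductase known from photoreceptors, was at 1.05, 1.35 and 0.820 CPM in Ctrl-labelled libraries 1, 2 and 3 and at 0.254, 0.312 and 0.295 CPM in the cKO-labelled ones. The libraries labelled cKO were all lower but held only 9, 12 and 13 counts, against 41, 56 and 30 in those labelled Ctrl. Rdh12 was called, with a log2 difference of -1.89 (SE 0.29, edgeR adjusted p = 0.00648). It passed in each of the 12 alternatives that could be run. Dhrs7c, a retinol dehydrogenase of the muscle sarcoplasmic reticulum, was at 83.6, 93.3 and 89.5 CPM against 221, 149 and 184 CPM. Here every library labelled cKO was higher, and Dhrs7c was called in the direction opposite to that of Dhrs9 (log2 difference 1.06, SE 0.14, edgeR adjusted p = 0.00462). Its fold change was close to the limit of 2, and the call, though not the pass, was lost with total counts (0.79) and without replicate 1 labelled cKO (0.89). The higher sum of the mostly fast skeletal fiber list and the lower sum of the slow fiber list, given with Aldh1a1, stand beside this difference too, and their part in it was not tested. Smaller differences toward the cKO-labelled libraries were found for Adh5, an alcohol dehydrogenase that mainly handles S-hydroxymethylglutathione (0.33, SE 0.08, edgeR adjusted p = 0.0233), and for Rdh14 (0.27, SE 0.07, edgeR adjusted p = 0.0314). With total counts Adh5 and Rdh14 shrank to 0.08 (adjusted p = 0.494) and 0.01 (adjusted p = 0.926), and Rdh14 also lost its pass whichever library was left out.

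Of the retinoid X receptors, the partners of the Rar receptors, Rxra and Rxrg were higher in the cKO-labelled libraries, while Rxrb did not pass. Rxrg, the form typical of skeletal muscle, was at 38.3, 39.0 and 47.7 CPM in Ctrl-labelled libraries 1, 2 and 3 and at 90.6, 77.2 and 73.3 CPM in the cKO-labelled ones (log2 difference 0.95, SE 0.12, edgeR adjusted p = 0.00369). Rxra was at 160, 155 and 172 CPM against 267, 253 and 243 CPM (0.65, SE 0.08, edgeR adjusted p = 0.00365). Both receptors were separate between the groups by more than the spread within them, and both passed in 13 of 13 alternatives. The part of the skeletal fiber list, which was higher in the cKO-labelled libraries, and of the slow fiber list, which was lower, was not tested here either. Of 6 co-regulators tested, 1 passed (16.7%, against 24.4% of all genes), the coactivator Ncoa1, also higher in the cKO-labelled libraries (40.8 ± 2.23 against 60.8 ± 3.45 CPM, log2 difference 0.58, SE 0.08, edgeR adjusted p = 0.00442). The third Rar receptor, Rarg, did not pass (-0.14, SE 0.16).

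The genes of retinol transport gave 1 pass in 6 tested (16.7%, against 24.4% of all genes). The genes known to respond to retinoic acid gave 1 in 10 (10%). The groups did not overlap in 4 of the 6 transport genes, all higher in the Ctrl-labelled libraries (66.7%, against 43.9% of all genes). Among the genes known to respond, this held for 3 of 10 (30%). Rbp7, a cellular retinol binding protein of fat and endothelial cells, was at 4.19, 4.03 and 3.25 CPM in the Ctrl-labelled libraries and at 2.29, 2.21 and 2.93 CPM in the cKO-labelled ones (log2 difference -0.63, SE 0.18, edgeR adjusted p = 0.0453). Nav2, which was first found as a gene induced by retinoic acid in neuroblastoma cells, was at 49.5, 47.9 and 69.8 CPM against 23.4, 38.4 and 18.5 CPM, and was called (-1.06, SE 0.28, edgeR adjusted p = 0.0325). Neither pass held in most fits that left out a library. Such fits have fewer mice, and passes over all genes ran from 1560 to 3585 in them, against 3454 with all libraries. When each library was left out in turn, Rbp7 kept its pass only without replicate 3 labelled Ctrl (edgeR adjusted p up to 0.142 without another), and Nav2 only without replicate 2 labelled cKO (up to 0.103).

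Of the enzymes that break down retinoic acid, neither of the 2 tested passed, against 24.4% of all genes. Cyp26b1 had 1214, 1577 and 1047 counts in Ctrl-labelled libraries 1, 2 and 3 and 170, 766 and 821 in the cKO-labelled ones. Its groups did not overlap, but replicate 1 labelled cKO was far below the others of its group (log2 difference -1.17, SE 0.45, edgeR adjusted p = 0.103). Cyp26a1 had 4, 5 and 9 against 4, 46 and 16 counts, a spread set by replicate 2 labelled cKO (1.83, SE 0.84, edgeR adjusted p = 0.152). Aldh1a3, the remaining retinal dehydrogenase of the Aldh1a family proper, had 85 to 107 counts in every library and a log2 difference of -0.16 (SE 0.18).

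**Figure D3:**
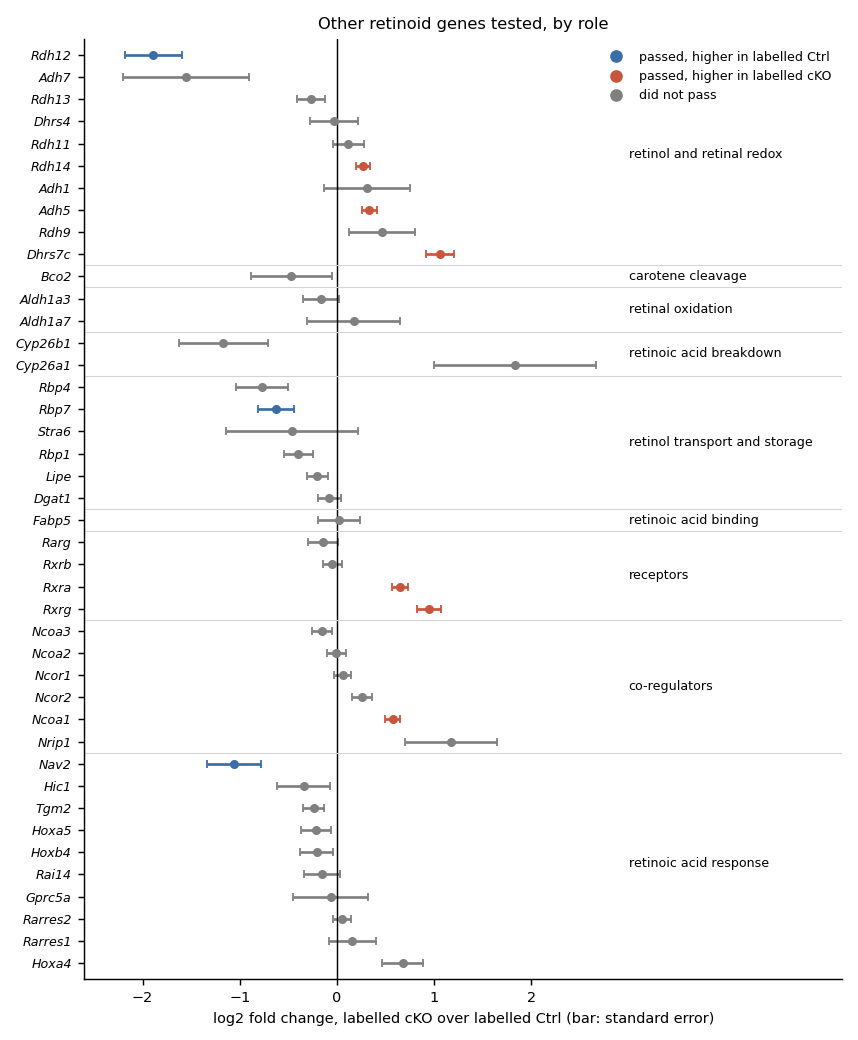
Log2 fold change, labelled cKO over labelled Ctrl, of the 42 other retinoid genes tested, grouped by role, with the standard error as a bar. The 3 genes that passed the test with higher levels in the Ctrl-labelled libraries are blue (Rdh12, Rbp7 and Nav2), the 6 with higher levels in the cKO-labelled ones are red, and the other 33, in gray, did not pass.

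No tested gene near Dhrs9 on chromosome 2 was called. Within 1 Mb of its start lie 20 genes of the count tables, of which 13 had enough counts for the test. Of the 13, 0 were called (edgeR, and 0 with DESeq2, against 6.05% of all genes with edgeR), and 0 had an unadjusted p under 0.05 with a fold change over 2. In a list of 13 genes, 0 calls is near that background. The nearest upstream gene, Abcb11, the bile salt export pump, and G6pc2, a glucose-6-phosphatase of the pancreatic islet, were at 0 in all 6 libraries. On the downstream side, Lrp2, an endocytic receptor of the kidney, had 1 count in all. Dhrs9 was therefore flanked on both sides by genes at or near 0 in every library of either label.

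Of the 13 tested neighbors, 4 passed without the fold limit (30.8%, against 24.4% of all genes), 2 in each direction. Klhl41, a sarcomere-associated kelch protein whose start lies 290 kb away, was at 1451 ± 148 CPM in the Ctrl-labelled libraries and 974 ± 43.1 CPM in the cKO-labelled ones (log2 difference -0.58, SE 0.11, edgeR adjusted p = 0.0124), a pass that was lost without replicate 2 labelled Ctrl (adjusted p = 0.051). Klhl23, at 441 kb, was at 44.0 ± 3.05 against 29.0 ± 0.875 CPM (-0.60, SE 0.08, edgeR adjusted p = 0.00369). Ubr3, a ubiquitin ligase at 517 kb, had the opposite direction (346 ± 43.6 against 546 ± 12.1 CPM, 0.66, SE 0.11, edgeR adjusted p = 0.00771). So had Nostrin, a regulator of endothelial nitric oxide synthase at -245 kb, at 0.554 ± 0.0466 against 1.10 ± 0.175 CPM (0.98, SE 0.24, edgeR adjusted p = 0.025), although its pass was lost in 8 of 13 alternatives. The median log2 difference of the 13 was 0.08. The other 9 tested neighbors ranged from -0.79 for Ccdc173 to 0.43 for Mettl5, and none of them passed.

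**Figure D4:**
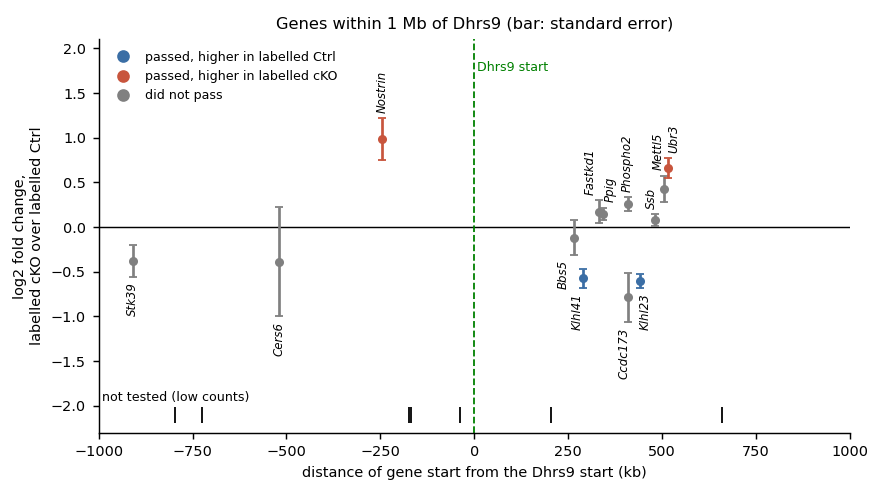
Log2 fold change (labelled cKO over labelled Ctrl, with the standard error as a bar) of the 13 tested genes within 1 Mb of Dhrs9, against the distance of the gene start from the Dhrs9 start in kb. Ticks at the bottom are the 7 genes with too few counts for the test. All points lie between -0.79 and 0.98, and Dhrs9 itself, at -9.16, is off the scale and drawn as a dashed line at 0 kb.

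Markers of several cell types moved with Dhrs9. The 6 macrophage markers summed to 95.3 to 102 CPM in the Ctrl-labelled libraries and 55.4 to 66.8 CPM in the cKO-labelled ones, with 5 of 6 passing. The 6 slow fiber markers summed to 12296, 7399 and 7692 CPM in Ctrl-labelled libraries 1, 2 and 3 and 1518, 2869 and 287 CPM in the cKO-labelled ones, with 3 of 6 passing. Both sums were lower in every library labelled cKO than in any labelled Ctrl, the slow fiber sum most of all in replicate 3 labelled cKO. The sum of the epidermis list, a tissue in which Dhrs9 is known to be expressed, was 31.1 to 35.9 CPM against 13.2 to 16.1 CPM, with 2 of 3 tested markers passing. Its defining keratins Krt5 and Krt14 were at 0 in all 6 libraries, and most of the sum was Trp63, a transcription factor of the p53 family whose expression is not confined to skin, at 30.8 ± 3.20 against 11.5 ± 0.689 CPM. Smooth muscle and pericyte markers (461 to 479 against 367 to 396 CPM, 3 of 6 passing) and Schwann cell markers (142 to 207 against 81.1 to 131 CPM, 1 of 6 passing) were lower in the cKO-labelled libraries too. The sums of fibro-adipogenic progenitor (716 to 778 against 663 to 830 CPM, 2 of 6 markers passing, both higher in the Ctrl-labelled libraries), tendon (314 to 348 against 161 to 688 CPM, 1 of 6 passing, higher in labelled cKO), adipocyte (24.2 to 78.6 against 32.2 to 75.3 CPM, 0 of 6 passing) and leukocyte markers (4.90 to 7.36 against 2.37 to 4.99 CPM, 0 of 1 tested passing) overlapped between the groups, and the endothelial sum (366 to 383 against 337 to 365 CPM, 0 of 6 passing) was slightly lower in the cKO-labelled libraries. The part of these cell types in the Dhrs9 difference was not tested.

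**Figure D5:**
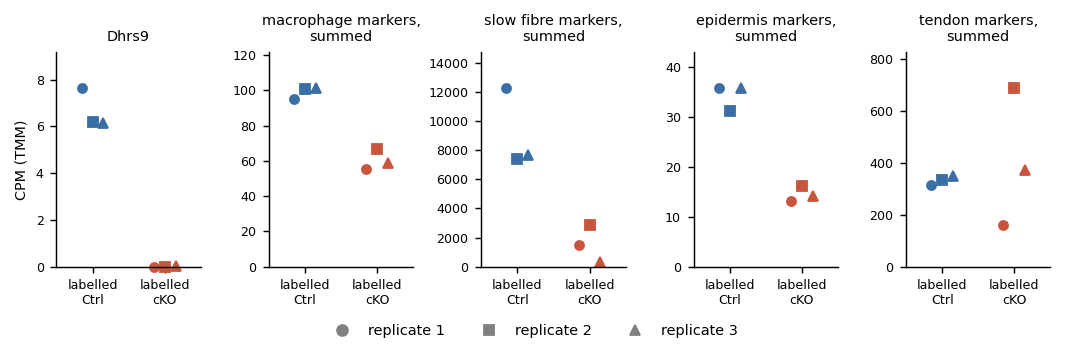
Dhrs9 and the summed levels of 4 marker lists in each library, in CPM (linear axes that start at 0), with the Ctrl-labelled libraries in blue and the cKO-labelled ones in red. Macrophage, slow fiber and epidermis sums are lower in all 3 libraries labelled cKO, tendon sums overlap, and Dhrs9 is at 0 or nearly so.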

How the data were processed

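Libraries were made from mRNA with the KAPA mRNA HyperPrep kit per the labels, and by an outside provider (Genewiz) per the study's methods. Per the labels and methods, reads were checked with FastQC 0.11.8, trimmed with Trimmomatic 0.39, aligned to mm10 with HISAT2 2.1.0 and counted per gene with featureCounts 1.6.2. The authors deposited whole-number counts without normalization, 1 table per mouse. The gene annotation and strand setting are not given in the sources used here.

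The test was edgeR 4.0.16 under R 4.3.3 (filterByExpr, TMM, glmQLFit and glmQLFTest, two-sided, Benjamini-Hochberg adjustment over all genes tested), with labelled group as the only term. The thresholds follow the study, which used DESeq. DESeq2 1.42.0, other scalings and filters, a replicate block, a robust fit and leaving out each library were alternatives. The scripts were tested on simulated data. P-values measure the spread between mice, 3 per group. Gene models and exon lengths came from GENCODE M21 (GRCm38, the same assembly as mm10), where 98.3% of symbols matched, and promoters from RefSeq (GRCm38.p6), where Rdh10 and Crabp2 had no match.

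The members, the wider retinoid list, the marker lists and the promoter motifs were chosen with earlier results of these data known. Genes were named by rule: the 9 members, Ppapdc3, genes of the wider list that passed, tested genes within 1 Mb of Dhrs9, the 5 genes most correlated with Dhrs9 (1 of them is not reported here), and genes at most at 3 counts in every library of a group and at least at 30 in the other. Blvrb and Tnfsf13b, the untested neighbors, the markers, and the genes of the wider list named without a pass (Rxrb, Rarg, Cyp26a1, Cyp26b1, Aldh1a3 and Aldh1a7) fall outside it and were named after their values were seen.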

Additional observations from a re-analysis of the deposited data

How the results depend on the processing

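Without the fold limit, 3454 genes passed, 1668 higher in the libraries labelled Ctrl and 1786 higher in those labelled cKO, and the passes numbered 9 in the wider retinoid list and 4 near Dhrs9. With total counts in place of TMM, 1023 genes were called as higher in labelled Ctrl, 157 as higher in labelled cKO, and 1 near Dhrs9. This follows from the scaling itself, which moved the median log2 difference to -0.269. Leaving out each library in turn gave 172 (without Ctrl replicate 1) to 387 genes called as higher in labelled cKO, and 1 (without cKO replicate 1) to 4 in the wider list. The cause of the shifts on leaving out a library was not tested.

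Same-numbered libraries did not deviate together (correlations of 0.0831, -0.251 and -0.0121). Differently numbered ones ran from -0.229 to 0.227, so this check gave no sign of pairs but cannot exclude them. With the replicate number as a block, 684 genes were called in place of 858, 5 of the wider list passed in place of 9, and 2 of the neighbors in place of 4. Rdh14, Adh5, Rbp7, Nav2, Nostrin and Klhl41 lost their pass there. Klhl41 (adjusted p = 0.052 under the block) also lost it without Ctrl replicate 2. Adh5 also lost it without Ctrl replicate 1, cKO replicate 1 or cKO replicate 3 (adjusted p up to 0.101), and Rbp7 without a filter on low counts (0.0545). Rdh12, Dhrs7c, Rxra, Rxrg, Ncoa1, Klhl23 and Ubr3 passed in every alternative that could be run. The log2 difference of Ppapdc3 ran from 3.95 to 4.31. Among members, only Rara and Rarb changed sign. At this depth, low genes such as Crabp2 could not be tested.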
